A study of Mus musculus with 6 samples.

Results

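Early B lymphoid genes were followed here in mouse bone marrow cells that had received either MN1 or an empty retroviral vector. The 34 genes are a list given by symbol, and each was read from the probe set that carries its symbol alone. All 34 were found, among 19938 genes with a single-named probe set, and each had 1 such probe set. They encode the surrogate light chain and receptor subunits of the pre-B cell receptor, the recombination enzymes, the transcription factors of B cell commitment, signalling proteins and surface markers.

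The MN1 group received an MSCV retrovirus carrying MN1, a transcriptional coregulator found at high levels in some myeloid leukaemias, followed by an internal ribosome entry site and a fluorescent reporter. The empty vector group received the same vector without MN1. Cells carrying the reporter, called GFP by the sample labels but YFP by the series text, were sorted at 72 hours. The series states 3 independent experiments, and each group held 3 one-colour whole-transcript arrays. The strain, age, sex and any enrichment or culture of the marrow are not stated in the labels, and nothing in the labels ties a sort to B lineage markers. Values are log2 expression levels, so a difference of 1 is a 2-fold difference, and the labels do not say whether marrow was pooled.

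B cells arise in the marrow from lymphoid progenitors. E2A, EBF1, FOXO1 and PAX5 open and fix the B cell programme, IL-7 receptor signals sustain the early cells, and the RAG proteins with terminal transferase assemble the immunoglobulin heavy chain gene. The new heavy chain is then tested at the cell surface with the surrogate light chain, made of VPREB and IGLL1 (lambda 5), and the signalling subunits CD79A and CD79B. Later stages lose the surrogate light chain and gain surface proteins such as CD20, the product of Ms4a1. In bulk RNA, fewer cells of a type and less RNA per cell cannot be told apart.

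Upstream sequences are shown for 5 members because 3 of them, Igll1, Vpreb1 and Rag1, were highest on the same pair of arrays, Cd79a followed another pair, and Vpreb2 is a near copy of Vpreb1 with a different pattern. Each is the 250 bases before the RefSeq start on build GRCm38.p6, 5′ to 3′ on the gene's strand. Capitals mark letters searched on both strands, namely CCNNGGGA and TCNNGGGA, which are partial or variant forms of the EBF1 site, CAGGTG, an E-box of E2A, ATGCAAAT, the octamer of POU2F2, and GAGGAA, the core of PU.1 sites.
Igll1 (chr16:16863986-16864235, minus strand): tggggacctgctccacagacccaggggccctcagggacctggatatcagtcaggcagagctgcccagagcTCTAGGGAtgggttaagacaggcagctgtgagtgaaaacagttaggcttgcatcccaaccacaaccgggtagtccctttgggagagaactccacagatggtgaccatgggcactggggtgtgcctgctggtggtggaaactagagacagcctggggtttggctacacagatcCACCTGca
Vpreb1 (chr16:16869256-16869505, minus strand): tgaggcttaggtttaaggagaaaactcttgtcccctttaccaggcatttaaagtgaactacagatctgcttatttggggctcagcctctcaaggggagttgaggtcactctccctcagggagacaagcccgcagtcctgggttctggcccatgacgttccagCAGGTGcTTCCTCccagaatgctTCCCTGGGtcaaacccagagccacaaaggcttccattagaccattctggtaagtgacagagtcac
Vpreb2 (chr16:17980315-17980564, plus strand): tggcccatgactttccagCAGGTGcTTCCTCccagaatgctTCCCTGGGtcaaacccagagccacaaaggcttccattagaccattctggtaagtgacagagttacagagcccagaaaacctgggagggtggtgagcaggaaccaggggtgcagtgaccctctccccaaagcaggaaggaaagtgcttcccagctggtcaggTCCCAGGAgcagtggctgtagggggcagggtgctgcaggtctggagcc
Rag1 (chr2:101649533-101649782, minus strand): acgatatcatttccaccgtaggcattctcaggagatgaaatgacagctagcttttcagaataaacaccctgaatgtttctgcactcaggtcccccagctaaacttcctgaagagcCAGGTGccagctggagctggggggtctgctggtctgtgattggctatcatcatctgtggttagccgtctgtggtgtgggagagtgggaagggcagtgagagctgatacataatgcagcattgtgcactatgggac
Cd79a (chr7:24897247-24897496, plus strand): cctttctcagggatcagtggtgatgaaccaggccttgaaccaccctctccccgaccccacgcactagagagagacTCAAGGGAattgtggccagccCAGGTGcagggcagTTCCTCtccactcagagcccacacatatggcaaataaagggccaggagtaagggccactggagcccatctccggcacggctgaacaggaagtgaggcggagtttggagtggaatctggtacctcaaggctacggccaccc

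All 5 of these windows hold the E-box letters, and all but that of Rag1 hold a form of the EBF1 letters. Dntt, Lef1 and Bst1, highest on the same pair of arrays as Igll1, Vpreb1 and Rag1, are not shown. The window of Dntt and the first listed window of Lef1 hold none of the searched letters, and no window was found for Bst1. Windows were found for 27 of the 34 members, and the first listed window of each gene was counted. Of these, 8 held CAGGTG, or 29.6% against 17.1% of the windows of 27025 genes. TCNNGGGA was in 8 (29.6% against 15.1%), CCNNGGGA in 5 (18.5% against 18.8%), GAGGAA in 10 (37.0% against 23.1%) and ATGCAAAT in 2 (7.41% against 1.61%), the last being Blnk and Vpreb3. Counting every listed window of a gene, 9 members held CAGGTG (33.3% against 19.4%) and 12 held GAGGAA (44.4% against 25.9%), with the other counts as given. No searched letters overlap another match in the 5 windows shown. A match is a run of letters and not a measured site. The end of the Vpreb1 window and the beginning of the Vpreb2 window align over 106 bases with 104 identical, so the pair share this stretch at different distances from their annotated starts. The CAGGTG, CCNNGGGA and GAGGAA matches of both genes lie in it, so those counts include the shared stretch once for each gene.

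The early B lymphoid genes did not separate MN1 from empty vector arrays. By limma with Benjamini-Hochberg adjustment, 0 of the 34 passed an adjusted p of 0.05 in either direction, as did 0% of all genes. The smallest adjusted p among the members was 0.584. At an unadjusted p under 0.05, 3 members were higher with MN1 (8.82%) beside 4.17% of all genes, and 1 was lower (2.94%) beside 4.23%. The higher members were Dntt, Rag1 and Bst1, and the lower one was Cd24a. Of the 34, 18 were higher and 16 lower at any size, with a median log2 difference of 0.12, while over all genes the median was -0.03 and 43.3% were higher. The 3 arrays of one group lay wholly on one side of the other group for 1 member, Cd24a, or 2.94%, against 16% of all genes. The direction of the median depended on single arrays, since it was -0.21 without empty vector replicate 2, -0.11 without MN1 replicate 3 and 0.45 without empty vector replicate 3. It was -0.08 without empty vector replicate 1, -0.02 without MN1 replicate 1 and 0.22 without MN1 replicate 2.

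Replicate arrays disagreed strongly over these genes. The residual SD between replicate arrays had a median of 0.66 over the members and 0.17 over all genes, at median levels of 6.57 and 6.55. Of the 34, 27 lay in the top 10% of all genes by this SD, and 25 lay in the top 10% of genes of similar level, that is, in the same 1 of 10 bins by mean. Such a spread was not particular to them. Granulocyte genes had a median SD of 1.52, with 16 of 16 in the top 10% of all genes, monocyte and macrophage genes 0.79, with 11 of 13, and genes of mature B and plasma cells 0.57, with 14 of 23. The highest and the lowest of the 6 arrays were at least 2-fold apart for 28 members (82.4%), against 15% of all genes, and at least 4-fold apart for 15 (44.1%), against 2.94%. Within the empty vector group a 2-fold gap was present for 21 members and within the MN1 group for 25, against 5.37% and 8.50% of all genes. For 33 of the 34 members (97.1%) the larger of the within-group ranges exceeded the difference between group means, and 91.8% of all genes shared that property.

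**Figure D1:**
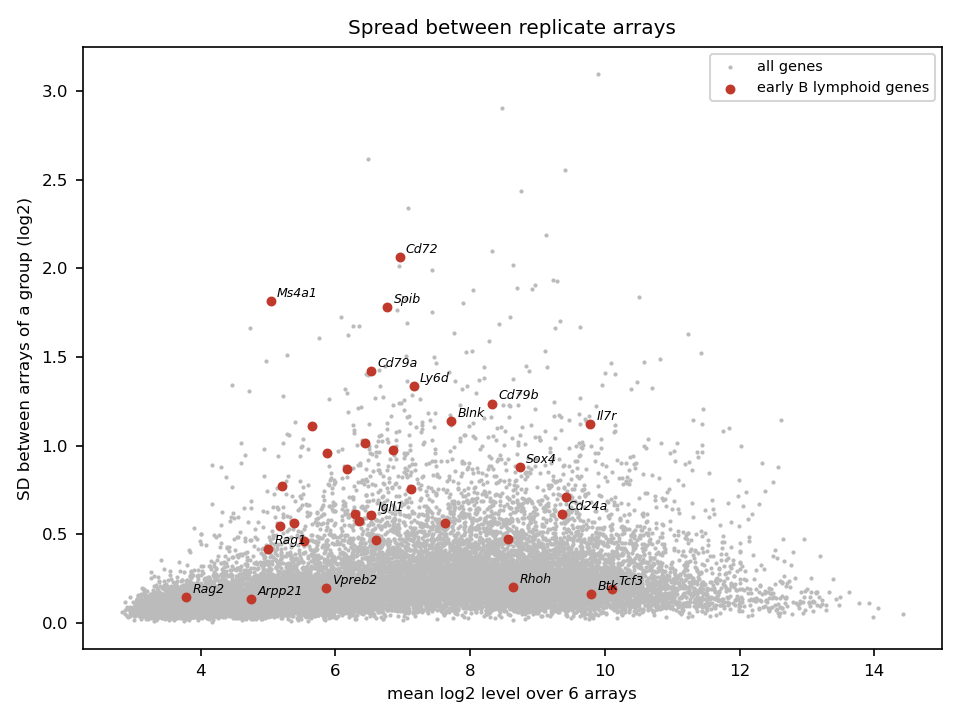
The SD between arrays of a group (log2, vertical) is plotted against the mean log2 level over 6 arrays (horizontal) for all 19938 genes in grey and the 34 early B lymphoid genes in red. Most red points lie above the grey mass, with Cd72 at an SD of 2.06, while Rag2, Arpp21, Vpreb2, Rhoh, Btk and Tcf3 lie within it.

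The spread had a common form. Empty vector replicate 3 was the highest of all 6 arrays for 18 members, and MN1 replicate 2 was the lowest for 15, where the same arrays were highest and lowest for 14.1% and 10.7% of all genes. Empty vector replicate 2 was the lowest for 10 members (29.4%, against 15.3% of all genes). Its mean over the 34 was 6.37, beside 6.44 on MN1 replicate 2, so the low side occurred in both groups. Empty vector replicate 3 lay above both other empty vector arrays for 25 members (73.5%, against 32.5% of all genes). MN1 replicate 2 lay below both other MN1 arrays for 23 (67.6%, against 26.6%). The highest pair of arrays was empty vector replicate 3 with MN1 replicate 3 for 17 members, or 50% against 8.41% of all genes. For 6 members, Vpreb1, Igll1, Rag1, Dntt, Lef1 and Bst1, it was MN1 replicates 1 and 3 (17.6% against 7.90%). For Il7r, Blnk, Btk and Arpp21 it was MN1 replicates 1 and 2 (11.8% against 5.92%). These arrays were described after their values were seen, and no test was made between them.

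**Figure D2:**
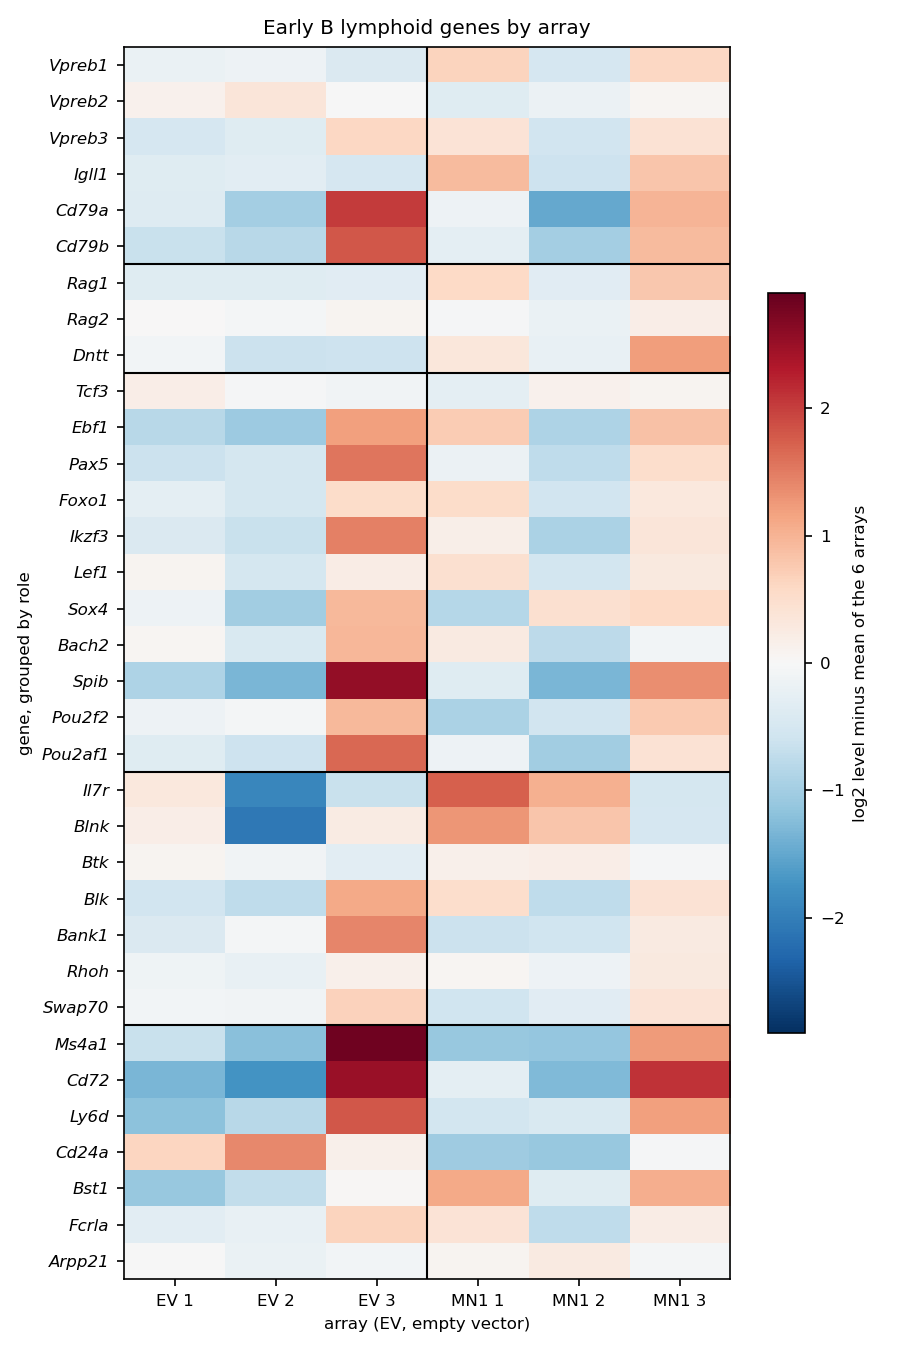
Each row is 1 of the 34 genes, grouped by role from top (receptor subunits, recombination enzymes, transcription factors, signalling proteins, surface and other markers), and each column is 1 array (EV, empty vector). Colour gives the log2 level minus the gene's mean over the 6 arrays. The columns of empty vector replicate 3 and MN1 replicate 3 are mostly red, while those of empty vector replicate 2 and MN1 replicate 2 are mostly blue.

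The surrogate light chain genes showed 2 patterns. Igll1, which encodes lambda 5, measured 6.19, 6.23 and 6.05 on empty vector replicates 1 to 3, and 7.45, 5.92 and 7.34 on MN1 replicates 1 to 3. MN1 replicates 1 and 3 were therefore above every empty vector array, and MN1 replicate 2 was below them all. The log2 difference was 0.75 ± 0.40 (SE), with an adjusted p of 0.597 (limma). Vpreb1, which encodes the partner of lambda 5 in the surrogate light chain, measured 5.34, 5.38 and 5.12 with the empty vector and 6.17, 5.04 and 6.13 with MN1. Its arrays fell in the same arrangement, with a difference of 0.50 ± 0.31. Vpreb2, its near copy, had 5.97, 6.20 and 5.85 with the empty vector and 5.50, 5.68 and 5.92 with MN1, a difference of -0.31 ± 0.15. The probe set named for Vpreb2 thus did not follow that of Vpreb1, and whether either reads the other gene's transcript was not tested.

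Vpreb3 and the signalling subunits of the receptor were high on empty vector replicate 3 too. Vpreb3, a VPREB-like protein of B lineage cells, measured 5.87, 6.0 and 6.96 with the empty vector and 6.74, 5.80 and 6.77 with MN1, a difference of 0.16 ± 0.38 (SE). Cd79a measured 6.16, 5.53 and 8.54 with the empty vector and 6.37, 5.05 and 7.50 with MN1, and Cd79b 7.67, 7.52 and 10.12 against 8.04, 7.35 and 9.24. Both were highest on empty vector replicate 3 and next on MN1 replicate 3, and the groups overlapped throughout. Their log2 differences of -0.44 ± 0.92 and -0.23 ± 0.80 became 0.46 and 0.61 without empty vector replicate 3.

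**Figure D3:**
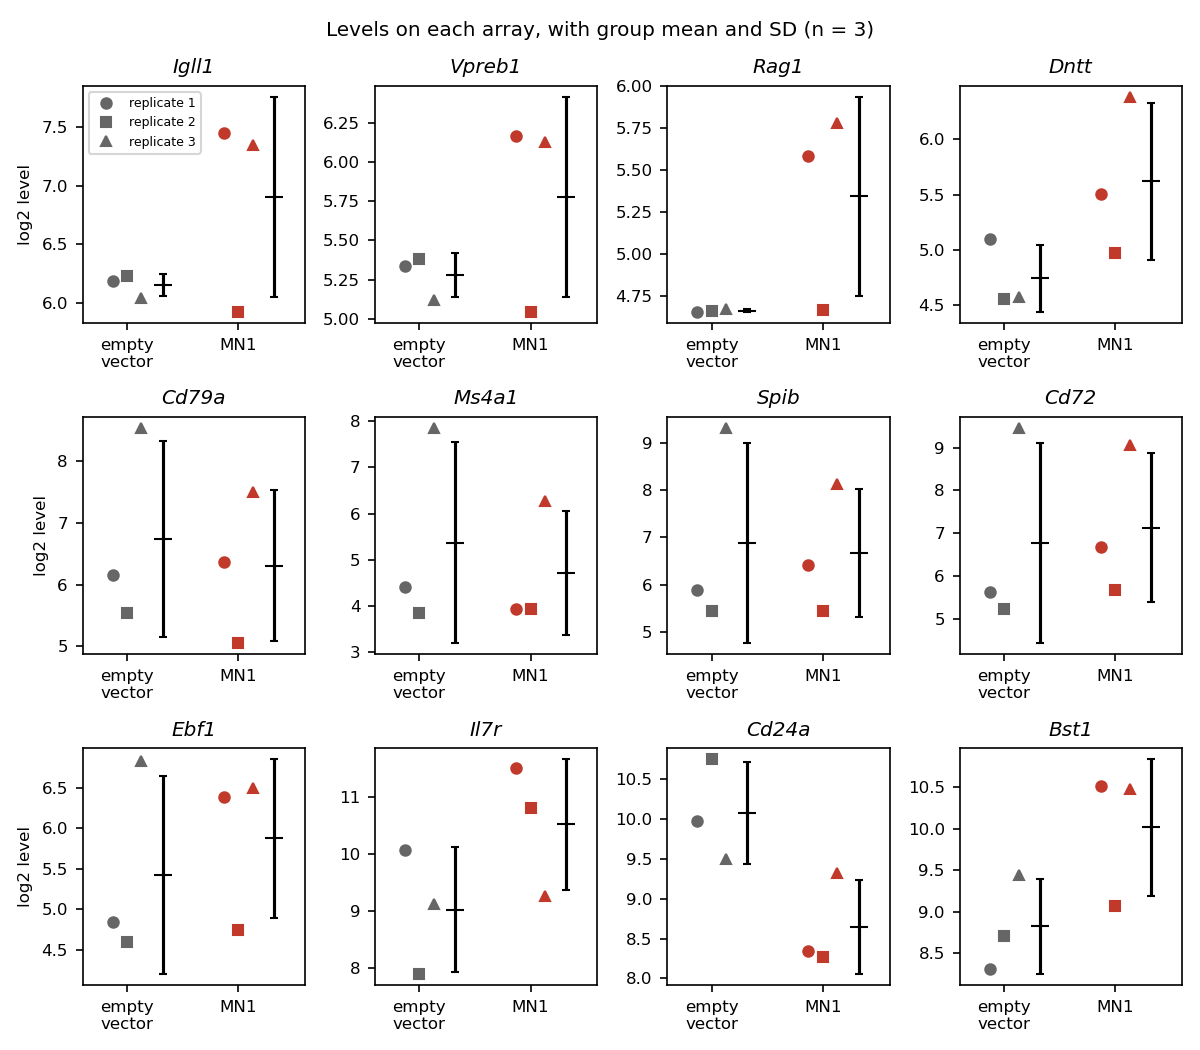
Log2 levels of 12 members on each array are shown by group (grey, empty vector; red, MN1), with a symbol for each replicate number and the group mean ± SD (n = 3) at the right. Vertical scales differ between panels. Igll1, Vpreb1 and Rag1 are high only on MN1 replicates 1 and 3 of these 6 arrays, Cd79a, Ms4a1, Spib and Cd72 are high on replicate 3 of both groups, and only for Cd24a of the 12 do the groups not overlap.

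Among the recombination enzymes, Rag1 and Dntt were near the lower end of the scale on most arrays and higher on part of the MN1 arrays. Rag1, which with Rag2 cuts the immunoglobulin gene segments, measured 4.66, 4.66 and 4.67 with the empty vector and 5.58, 4.67 and 5.78 with MN1. Its empty vector arrays spanned 0.02 and its MN1 arrays 1.11, so the difference of 0.68 ± 0.28 (SE) rested on MN1 replicates 1 and 3. Its unadjusted p was 0.0495 and its adjusted p 0.584 (limma, fitted across all genes). Dntt, the terminal transferase that adds bases at the joins, measured 5.10, 4.56 and 4.57 with the empty vector and 5.50, 4.98 and 6.39 with MN1. Its difference was 0.88 ± 0.36, and MN1 replicate 2 lay below empty vector replicate 1. Without MN1 replicate 3 these differences were 0.46 for Rag1 and 0.50 for Dntt, and without MN1 replicate 2 they were 1.02 and 1.20. Rag2 stayed between 3.59 and 3.98 on all 6 arrays, at the 7.27th percentile of level over all genes. Its difference was -0.02 ± 0.12, and differences at such low levels are understated by the array summary.

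Of the 11 transcription factors and coactivators, 4 were higher and 7 lower with MN1, with a median difference of -0.22, and 8 of them were highest on empty vector replicate 3. Ebf1, which commits progenitors to the B lineage, measured 4.84, 4.60 and 6.83 with the empty vector and 6.39, 4.74 and 6.5 with MN1, a difference of 0.45 ± 0.72 (SE). Empty vector replicate 3 and MN1 replicates 1 and 3 thus stood above the other 3 arrays, across the groups. Pax5, which fixes that commitment, measured 6.22, 6.34 and 8.40 against 6.67, 6.11 and 7.36, a difference of -0.28 ± 0.63. Spib, an ETS factor of B cells and plasmacytoid dendritic cells, measured 5.89, 5.44 and 9.32 against 6.42, 5.45 and 8.12. Its empty vector arrays spanned 3.88, the widest range among these 11 factors, and its difference was -0.22 ± 1.15. Pou2af1, the coactivator OBF-1, measured 6.09, 5.85 and 8.12 against 6.31, 5.44 and 6.87, and Ikzf3, the Ikaros family factor Aiolos, 5.46, 5.22 and 7.35 against 6.05, 4.96 and 6.23. Both were again highest on empty vector replicate 3, with differences of -0.48 ± 0.66 and -0.26 ± 0.62.

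The other factors varied less. Foxo1, which drives Rag and Il7r expression in early B cells, measured 7.33, 7.10 and 8.15 with the empty vector and 8.15, 7.06 and 7.93 with MN1, a difference of 0.18 ± 0.37 (SE). Bach2, a repressor that favours B over myeloid fate, differed by -0.39 ± 0.41, and Pou2f2, the octamer factor OCT2, by -0.48 ± 0.49. Sox4, which supports early B cell survival, differed by 0.14 ± 0.57, and Lef1, a Wnt pathway factor, by 0.14 ± 0.31. Each of these 5 genes had overlapping groups. Tcf3, which encodes the E2A proteins and is used widely outside the B lineage, was high and even, at 9.83 to 10.30 on the 6 arrays, with a difference of -0.05 ± 0.15.

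Il7r and Blnk held the largest and the third largest positive differences among the 34 and did not follow the receptor subunits. Il7r, the receptor chain for IL-7, measured 10.08, 7.90 and 9.12 with the empty vector and 11.51, 10.81 and 9.26 with MN1. MN1 replicates 1 and 2 were above all empty vector arrays, while MN1 replicate 3 was below empty vector replicate 1. The log2 difference was 1.5 ± 0.73 (SE), or 2.82-fold, with an adjusted p of 0.594 (limma), and it was 0.93 without empty vector replicate 2. Blnk, the adaptor that links the pre-B cell receptor to downstream kinases, measured 7.93, 5.66 and 7.97 against 9.01, 8.53 and 7.24. Its difference of 1.08 ± 0.74 became 0.31 without empty vector replicate 2. MN1 replicate 2 was thus high for Il7r and Blnk and lowest of all 6 arrays for Igll1, Vpreb1, Cd79a, Cd79b and Pax5. Monocyte and macrophage genes were also lowest on empty vector replicate 2, as given with the marker lists, and their part in the Il7r and Blnk values was not tested.

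The remaining signalling genes gave small or uneven differences. Blk, a SRC family kinase of B cells, measured 5.62, 5.44 and 7.27 with the empty vector and 6.67, 5.42 and 6.58 with MN1, a difference of 0.12 ± 0.56 (SE). Bank1, a B cell scaffold protein, was highest on empty vector replicate 3 at 6.63 and between 4.58 and 5.46 on the other arrays, with a difference of -0.64 ± 0.50. Swap70, a phosphoinositide-binding protein of B cells and other leukocytes, differed by -0.33 ± 0.31. Btk, the Tec family kinase also used by myeloid cells, ran from 9.50 to 9.995 with a difference of 0.21 ± 0.13, and Rhoh, a haematopoietic small G protein, from 8.42 to 8.92 with a difference of 0.14 ± 0.15. These last 2 genes were the evenest of the 7 in this group, and neither had separated groups.

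The surface markers included the widest and the most separated genes of the list. Cd72, a B cell coreceptor, measured 5.63, 5.23 and 9.46 with the empty vector and 6.67, 5.67 and 9.06 with MN1. Ms4a1, which encodes CD20, measured 4.40, 3.84 and 7.86 against 3.94, 3.92 and 6.27. For both, replicate 3 of each group stood at least 2 above every other array of its group. Their log2 differences were 0.36 ± 1.33 (SE) and -0.65 ± 1.17, and without empty vector replicate 3 they were 1.70 and 0.59. Ly6d, which marks lymphoid progenitors committed to the B lineage, measured 5.97, 6.35 and 8.96 against 6.63, 6.71 and 8.34, a difference of 0.13 ± 0.86. Fcrla, an intracellular Fc receptor-like protein of B cells, ran from 4.66 to 6.03, with a difference of -0.08 ± 0.37. Arpp21, a cAMP-regulated phosphoprotein gene, ran from 4.55 to 5.02, with a difference of 0.19 ± 0.12.

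Cd24a was the 1 member with separated groups. It encodes the heat stable antigen, a surface protein of early B cells and also of erythroid and granulocytic cells. It measured 9.98, 10.76 and 9.50 with the empty vector and 8.34, 8.27 and 9.32 with MN1, so each MN1 array lay below each empty vector array, the nearest pair being 9.32 and 9.50. The log2 difference was -1.44 ± 0.40 (SE), a size of 2.71-fold, with an unadjusted p of 0.0106 and an adjusted p of 0.584 (limma). It ranged from -1.78 to -1.10 when each array was left out in turn. Granulocyte genes were lower with MN1 for 15 of 16 and erythroid genes for 7 of 9 at any size, and their part in the Cd24a difference was not tested. Bst1, the ADP-ribosyl cyclase CD157 of early B cells, stroma and myeloid cells, was higher, at 8.31, 8.71 and 9.45 with the empty vector and 10.51, 9.07 and 10.47 with MN1. MN1 replicate 2 lay below empty vector replicate 3, and the difference was 1.19 ± 0.46. By limma its unadjusted p was 0.0399 and its adjusted p 0.584.

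**Figure D4:**
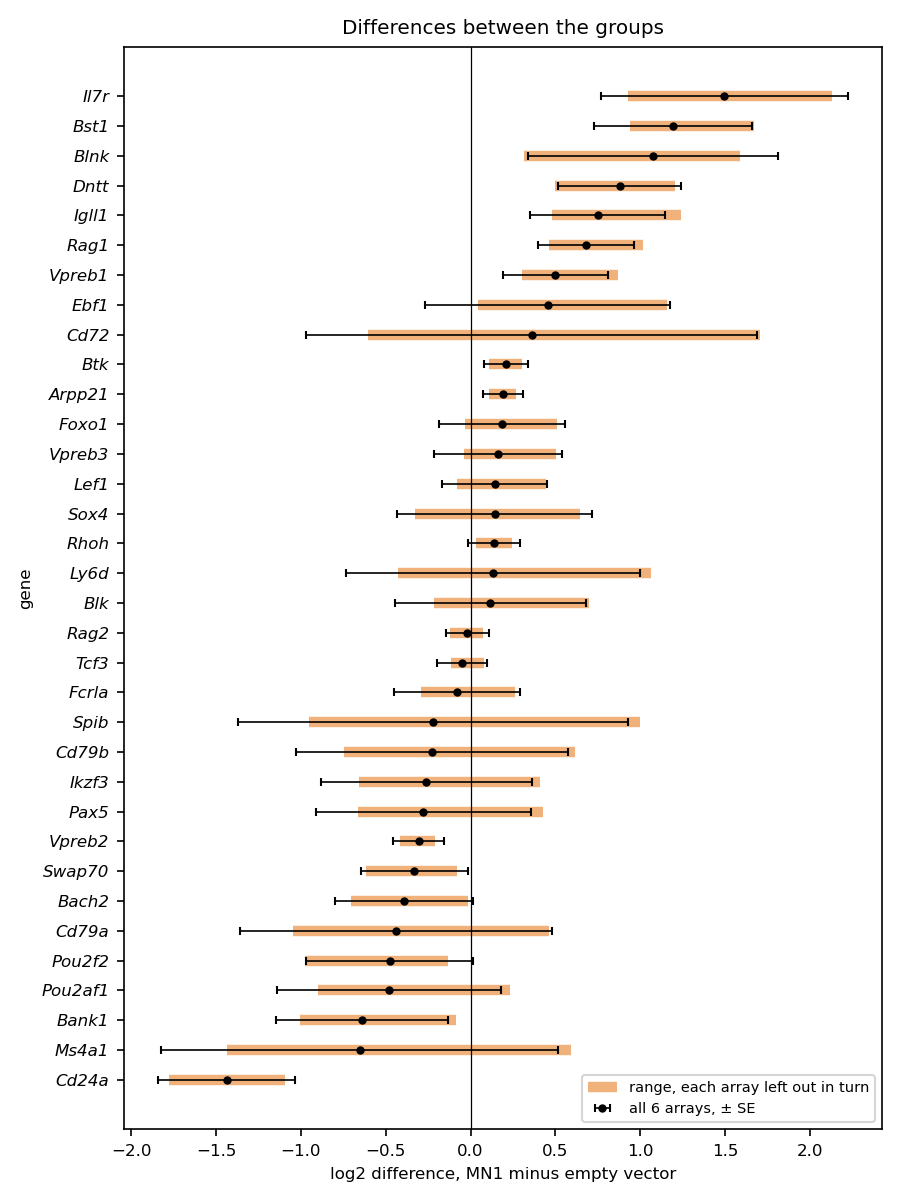
Log2 differences, MN1 minus empty vector, of the 34 genes in order of size (points, all 6 arrays, with SE bars), with the range when each array was left out in turn (orange bars). The orange bars of 17 genes cross 0, among them Cd79a, Ms4a1 and Cd72, and those of the other 17, among them Il7r, Bst1, Igll1, Rag1 and Cd24a, do not.

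By size alone, 3 members were at least 2-fold higher (Il7r, Bst1 and Blnk; 8.82% against 0.993% of all genes) and 1 at least 2-fold lower (Cd24a; 2.94% against 0.381%). These shares exceed those of all genes, as does the spread within groups. Leaving out an array turned the sign of 17 of the 34 differences. The 17 that kept their sign were Vpreb1, Vpreb2, Igll1, Rag1, Dntt, Ebf1, Bach2, Pou2f2, Il7r, Blnk, Btk, Bank1, Rhoh, Swap70, Cd24a, Bst1 and Arpp21. Some of them came near 0 without 1 array, such as Bach2 at -0.013, Rhoh at 0.030 and Ebf1 at 0.042. The share of all genes whose sign turned was not counted.

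Other genes of the B lineage were read beside the members. Of 15 measured genes of B cell receptor signalling, 9 were higher and 6 lower, and 0 passed the adjusted threshold, with a median difference of 0.02. Prkcb, the protein kinase C of that pathway, differed by -0.52 ± 0.57 (SE), Dapp1 by 0.49 ± 0.19, Ptpn6 by -0.36 ± 0.34 and Cd81, a tetraspanin, by 0.29 ± 0.37. Of 23 genes of mature B and plasma cells, 6 were higher and 17 lower, none past the threshold, with a median of -0.19. Sdc1, the plasma cell marker syndecan 1 that other cells also carry, differed by 1.17 ± 0.45, Ly86 by 1.15 ± 0.59, Ltb by -0.88 ± 0.45 and Fcrl1 by -0.65 ± 0.43. Fcrl1 was 6.81 on empty vector replicate 3 and 4.99 to 5.47 on the other 5 arrays.

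Genes of lymphoid progenitors were mixed. Of 30 measured, 14 were higher and 16 lower, none past the adjusted threshold, with a median of -0.03. Flt3, the receptor of early lymphoid and myeloid progenitors, measured 6.05, 6.38 and 5.97 with the empty vector and 7.02, 8.49 and 8.39 with MN1, a difference of 1.83 ± 0.39 (SE) with an adjusted p of 0.584 (limma). All 3 MN1 arrays were above all empty vector arrays for Flt3, and likewise for Mef2c. The same held for 1139 of all 19938 genes and for 0 of the 34 early B lymphoid genes. Satb1, a chromatin organiser of lymphoid progenitors, differed by -1.07 ± 0.46, Mef2c by 0.83 ± 0.31 and Cd27 by 0.82 ± 0.50.

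The 3 arrays with the highest mean over the 34 genes, empty vector replicate 3 at 7.65, MN1 replicate 3 at 7.43 and MN1 replicate 1 at 6.99, also had the highest means of 3 Y-linked genes and the lowest means of 16 granulocyte genes. The other means of the 34 were 6.61 and 6.37 on empty vector replicates 1 and 2 and 6.44 on MN1 replicate 2. The Y-linked genes Kdm5d, Uty and Eif2s3y averaged 5.78, 3.78 and 7.04 on empty vector replicates 1 to 3 and 7.11, 6.12 and 7.57 on MN1 replicates 1 to 3. A fit with this Y-linked mean as a covariate was chosen after the data were seen. In it, the median difference of the members went from 0.12 to -0.51 and 9 rather than 18 were higher. In that fit too, 0 members passed the adjusted threshold (limma). Eif2s3y differed by 1.83 ± 1.18 (SE), Uty by 1.52 ± 0.85 and Kdm5d by 0.86 ± 0.47. These Y-linked genes were thus themselves higher with MN1, by a mean of 1.40, so the covariate cannot be fully told apart from the group. Xist was listed with them but was not part of the Y-linked mean. It measured 9.52, 10.25 and 8.70 with the empty vector and 9.45, 9.79 and 9.02 with MN1, a difference of -0.07 ± 0.40. Granulocyte genes averaged 10.83, 11.96 and 8.88 with the empty vector and 9.02, 9.98 and 9.29 with MN1. Ly6g, a neutrophil marker, differed by -1.83 ± 1.30, Ms4a3 by -1.75 ± 1.10, Fcnb by -1.63 ± 0.91 and Elane by -1.59 ± 1.99 (SE). Their part in the values of the early B lymphoid genes was not tested.

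**Figure D5:**
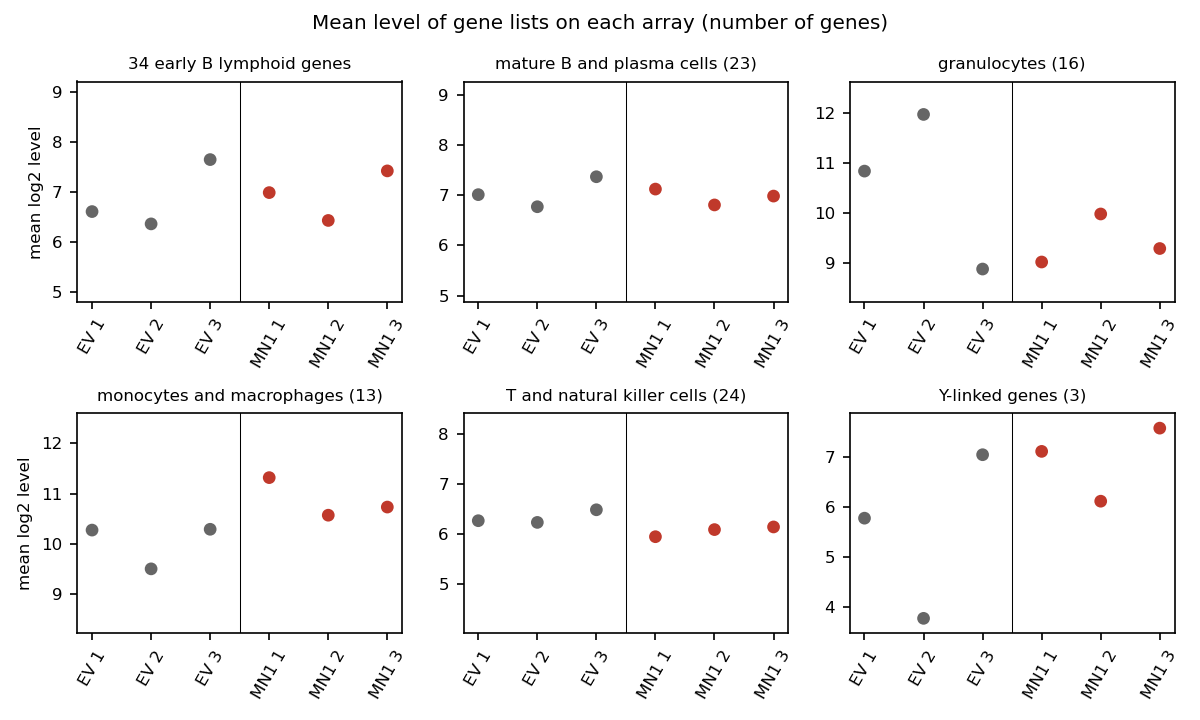
Mean log2 level of the 34 early B lymphoid genes and of 5 marker lists on each array (grey, empty vector; red, MN1), with the number of genes in brackets and vertical axes of equal span. The early B lymphoid genes and the Y-linked genes have their 3 highest points on EV 3, MN1 1 and MN1 3, where the granulocyte genes have their 3 lowest.

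Markers of the remaining cell types were as follows, with 0 genes past the adjusted threshold in any list. Of 13 monocyte and macrophage genes, 11 were higher, and the array means ran from 9.50 to 10.29 with the empty vector, lowest on replicate 2, and from 10.57 to 11.32 with MN1. C1qa differed by 1.76 ± 0.64 (SE), Cd36 by 1.55 ± 0.89, C1qc by 1.46 ± 0.58 and Gpnmb by 1.45 ± 0.70. Of 11 plasmacytoid dendritic cell genes, a type that shares Spib, Blnk and Dntt with early B cells, 6 were higher and 5 lower, with array means of 7.22 to 7.73 and 7.56 to 7.92. There Tlr7 differed by 1.25 ± 0.29, Irf7 by 1.04 ± 0.35, Cox6a2 by 0.85 ± 0.58 and Bst2 by 0.78 ± 0.32. The 5 lower genes were Tlr9 (-0.52 ± 0.43), Pacsin1 (-0.20 ± 0.14), Lair1 (-0.14 ± 0.16), Siglech (-0.11 ± 0.17) and Ccr9 (-0.01 ± 0.09).

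T and natural killer cell genes were lower for 19 of 24, where 11310 of all 19938 genes were lower. Array means of the list were 6.23 to 6.48 with the empty vector and 5.94 to 6.14 with MN1. Its median level was 5.69, beside 6.55 over all genes. Gzmb differed by -1.33 ± 0.65 (SE), Thy1 by -1.10 ± 0.59, Prf1 by 0.73 ± 0.57 and Cd2 by -0.67 ± 0.45. Gzmb and Thy1 stood well above the list's median level, at means of 11.44 and 9.86 over the 6 arrays. The 9 erythroid genes averaged 7.18 to 7.60 and 6.71 to 7.16, and the differences of Car1 (-1.24 ± 0.43), Rhag (-1.10 ± 0.43), Klf1 (-0.64 ± 0.27) and Ermap (-0.59 ± 0.20) were the largest. General blood cell genes averaged 11.25 to 11.55 on all 6 arrays, with the largest differences in Coro1a (-0.47 ± 0.27), Lcp2 (-0.24 ± 0.12), Vav1 (0.23 ± 0.13) and Spn (-0.21 ± 0.26). Stromal and endothelial genes averaged 6.37 to 6.48, and Kdr differed by 1.74 ± 0.68, Alpl by -0.48 ± 0.41, Acta2 by -0.46 ± 0.15 and Col1a1 by -0.34 ± 0.12. The mouse Mn1 probe set was higher on all 3 MN1 arrays, by 1.20 ± 0.21, with an adjusted p of 0.584 (limma), and whether it reads the transcript of the vector was not tested.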

How the data were processed

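RNA from 200 ng per sample was labelled by a whole-transcript sense protocol, per the labels' protocols. The values are the log2 levels per probe set that the authors deposited. Per the submitters' processing notes they come from RMA, whose version is not given in the sources used here. RMA compresses dim values, so differences of dim genes are understated. The number of arrays, 3 per group, limits precision, and p-values measure only the spread between these arrays. All 6 columns were used.

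Of 35557 probe sets, 21789 carry 1 symbol in the platform annotation of 2016. Of several for a gene, the one with the highest mean was kept, leaving 19938 genes. MN1 was compared with empty vector by limma 3.58.1 in R 4.3.3 (lmFit and eBayes, two-sided, no block, Benjamini-Hochberg over all genes, threshold 0.05), tested on simulated data. Of 185 list entries, 165 were measured.

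Named are all members and the 4 largest differences in each other list, with the lower genes of the plasmacytoid dendritic cell list added. The members and lists were chosen with earlier results of these data known. Upstream sequences are from RefSeq (GRCm38.p6). The alternatives tried are given in the closing section. Across all genes, deviations from group means of same-numbered arrays correlated at 0.13, 0.07 and 0.32. Those of empty vector replicate 1 and MN1 replicate 2 correlated at 0.44. The main fit did not pair arrays by number, and these values do not settle whether same-numbered arrays share an experiment. With a replicate block the median residual SD of the members was 0.47 rather than 0.66.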

Additional observations from a re-analysis of the deposited data

How the results depend on the processing

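No member was called under any alternative fit (smallest adjusted p 0.421, limma), and 0 genes were called at an adjusted p under 0.05 or 0.1. Whatever the p, 274 genes and 4 members were at least 2-fold apart. Genes at an unadjusted p under 0.05 numbered 1675, and 850 with the dimmest 40% left out, 2557 with every probe set tested, 906 with a Y-linked term split at the midpoint and 746 with the Y-linked mean as covariate, an alternative chosen after seeing the data. The midpoint sets only empty vector replicate 2 apart, so it equals leaving that array out. Leaving out each array gave 906 (empty vector replicate 2) to 1953 genes. Members at that threshold numbered 4 (11.8%, beside 8.40% of all genes), then 8 with the replicate block (23.5%, beside 1980 or 9.93% of all genes). They numbered 2 with the dim genes left out (8%, beside 7.11%) or every probe set tested (5.88%, beside 7.19%). With array weights 1 remained (2.94%, beside 8.34%), and with the midpoint term 1 (2.94%, beside 4.54%). The Y-linked mean as covariate gave 5 (14.7%, beside 3.74%). Leaving out an array gave 1 without empty vector replicate 2 (2.94%, beside 4.54%) or MN1 replicate 1 (2.94%, beside 6.62%). The most was 6, without MN1 replicate 2 (17.6%, beside 9.72%). The block moved no other count by over 1.5 times. Members with separated groups numbered 1, then 3 after median-centring (8.82%, beside 12.8% of all genes), 2 after quantile normalization (5.88%, beside 12.9%), and 1 to 9 leaving out an array (9 without MN1 replicate 3), where 21.5% to 31.5% of all genes were separated. The median difference was -0.51 with the Y-linked mean as covariate and -0.21 to 0.45 leaving out an array. The median residual SD stayed between 0.47 and 0.76.

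Rag2 turned to 0.0136 after median-centring and 0.00038 after quantile normalization. With the midpoint term, Foxo1 turned to -0.027, Lef1 to -0.078, Sox4 to -0.33, Blk to -0.22, Cd72 to -0.41 and Ly6d to -0.24. With the Y-linked mean as covariate, differences were -0.31 for Vpreb3, -0.59 for Ebf1, -0.33 for Foxo1, -0.275 for Lef1, -0.50 for Sox4, -0.69 for Blk, -0.052 for Rhoh, -1.54 for Cd72 and -0.91 for Ly6d. The cause was not tested. Leaving out each array, the differences that turned ran from -0.041 to 0.50 for Vpreb3, -1.04 to 0.46 for Cd79a, -0.74 to 0.61 for Cd79b and -0.12 to 0.072 for Rag2. They ran from -0.12 to 0.078 for Tcf3, -0.66 to 0.43 for Pax5, -0.035 to 0.51 for Foxo1, -0.66 to 0.41 for Ikzf3 and -0.078 to 0.45 for Lef1. They ran from -0.33 to 0.65 for Sox4, -0.95 to 1.00 for Spib, -0.90 to 0.23 for Pou2af1 and -0.22 to 0.70 for Blk. For Ms4a1 the range was -1.43 to 0.59, for Cd72 -0.60 to 1.70, for Ly6d -0.43 to 1.06 and for Fcrla -0.29 to 0.26. The filter on dim genes kept 25 members.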
